A study of Homo sapiens with 15 samples.

Results

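The miR-548 family was examined in small RNA libraries of 3 clones of a human embryonic kidney (HEK293) cell derivative, FTO1C1, FTO2D4 and FTO3C3. All entries of the count tables whose name starts with hsa-miR-548 were taken, whatever their letter or arm, which gave 54 entries of 2424 in all. The knockdown libraries listed 53 of them among 2418 miRNAs, the RIP-seq libraries listed 36 among 2189, and 35 were in both. In 3 entries several names were joined because their sequences are identical. Each clone gave 1 library with 10 nM scrambled siRNA and 1 with 10 nM FTO specific siRNA, both harvested after 48 h, and, without treatment, 1 input, 1 precipitate with an anti-m6A antibody and 1 with nonspecific IgG (RIP-seq). Each of the 5 groups therefore had 3 libraries, 1 per clone. For the knockdown, the methods of the study state that the lines were used uninduced.

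miR-548 genes arose from MADE1, a short palindromic transposon of primate genomes whose transcripts fold back into hairpins. Because the element was copied many times, the family has many members of similar sequence, and each hairpin can give rise to a 5p and a 3p miRNA, which carry opposite ends of the element. A miRNA guides Argonaute proteins to mRNAs mainly through its seed, bases 2 to 8. FTO removes the methyl group of N6-methyladenosine (m6A), and the study asked whether miRNAs carry m6A and whether less FTO alters their levels.

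RefSeq (GRCh38.p14) gave a mature sequence for 36 of the 54 entries, to which all sequence values below are limited. miR-548e-3p is not among them. The following were chosen because the results turn on them or on the contrast between them. Capitals mark the seed. Arms are as named, and miR-548k, ag, ba, m and p have no arm in their names.
miR-548k: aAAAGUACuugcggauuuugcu
miR-548b-5p: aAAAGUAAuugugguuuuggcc
miR-548aq-5p: gAAAGUAAuugcuguuuuugcc
miR-548ag: aAAGGUAAuugugguuucugc
miR-548ba: aAAGGUAAcugugauuuuugcu
miR-548m: cAAAGGUAuuugugguuuuug
miR-548e-5p: cAAAAGCAaucgcgguuuuugc
miR-548o-3p: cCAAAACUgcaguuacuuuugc
miR-548p: uAGCAAAAacugcaguuacuuu
miR-548f-3p: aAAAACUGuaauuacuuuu
miR-548g-3p: aAAACUGUaauuacuuuuguac
miR-548b-3p: cAAGAACCucaguugcuuuugu
miR-548as-3p: uAAAACCCacaauuauguuugu

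The genomic positions follow GRCh38.p14. miR-548k lies at chr11:70283986-70284007 on the plus strand, within PPFIA1. Both arms of miR-548b lie on the minus strand of chromosome 6 within FAM184A, the 5p arm at chr6:119069098-119069119 and the 3p arm at chr6:119069062-119069083. miR-548e-5p lies at chr10:110988940-110988961 within SHOC2, miR-548p at chr5:100816498-100816519 within ST8SIA4, and miR-548ba at chr2:49059603-49059624 within FSHR. miR-548aq-5p lies at chr3:185767883-185767904 within IGF2BP2, whose protein is known as a reader of m6A. miR-548o-3p has 2 loci, one at chr7:102405748-102405769 within PRKRIP1 and one at chr20:38516607-38516628 within RALGAPB. miR-548f-3p has 5 loci, each within a protein-coding gene, among them ERBB4, CNTNAP2 and DMD. miR-548m at chrX:95063192-95063212 and miR-548g-3p at chr4:147344643-147344664 lie in no gene of the table, and the same holds for the 2 loci of miR-548ag. Only gene spans were at hand, so exons and introns were not told apart.

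The 36 sequences had 25 distinct seeds. The seed AAAGUAA was shared by 7 entries (miR-548ab, ak, aq-5p, b-5p, j-5p, w and y), AAAAACU by 3 (miR-548aj-3p, aq-3p and j-3p), and AAGGUAA by miR-548ag and miR-548ba. In all, 16 entries shared a seed with another and 20 had a seed of their own. The 6 bases AAAAGU occurred in 14 of the 36 (38.9%) against 0.845% of the 2130 measured miRNAs with a sequence, and their reverse complement ACUUUU in 10 (27.8%) against 1.08%. At least 1 of the 2 was present in 24 of 36 entries. The sequences were rich in adenosine, with a median of 30.2% against 22.7% over all miRNAs. The letters AAC or GAC, the core of the methylation consensus examined by the study, occurred in 18 (50%) against 37.4%, and 1 of the 12 five-base forms of the whole consensus in 14 (38.9%) against 21.5%. These shares describe letters and not methylated sites.

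The relatedness also bears on counting, since a read that fitted several miRNAs was assigned by the authors to the best match. The 36 mature sequences were taken as reads and compared with all mature sequences of RefSeq, whether measured here or not. Of them, 21 met the matching rule for at least 1 other sequence, up to 16 others, and 15 met it for none. The entries without a sequence could not be compared. For example, miR-548o-3p and miR-548p share the 17 bases aaaacugcaguuacuuu, and miR-548f-3p and miR-548g-3p the 18 bases aaaacuguaauuacuuuu. Their counts are therefore uncertain with respect to each other, whereas miR-548b-3p, e-5p, m, ag, ba and as-3p met the rule for no other mature sequence of RefSeq.

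The libraries held between 186446 (IgG, FTO3C3) and 4973238 (m6A, FTO3C3) miRNA reads, and counts were expressed as reads per 1000000 miRNA reads (RPM). One read was thus worth far more RPM in the shallowest library, where 3 reads corresponded to 16.1 RPM and 11 of the 36 entries had no read. In the knockdown table miR-10a-5p took 22.1 to 30.6% of the reads, and miR-6080 took 58.0 to 71.6% in the IgG precipitates, 41.3 to 47.8% in the m6A precipitates and 15.5 to 28.4% in the inputs. In the input of FTO3C3 miR-3168 was the most abundant with 32.3%. These shares move every RPM value of the same library. FTO itself is a protein-coding gene and was not measured in these libraries.

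The family as a whole was a minor part of the miRNAs. Its summed level was 1746, 1758 and 1750 RPM with scrambled siRNA in FTO1C1, FTO2D4 and FTO3C3 and 1802, 1697 and 1579 RPM with FTO siRNA, so the 2 groups overlapped. The inputs held 1644, 1705 and 1516 RPM, the m6A precipitates 1565, 1558 and 2067 RPM and the IgG precipitates 941, 789 and 1244 RPM. In RPM, the IgG precipitates were thus below all other libraries, and the m6A precipitates overlapped with the inputs. Both statements rest on totals that include miR-6080, which took its largest share with IgG and its smallest in the inputs. With totals without miR-6080, the median log2 fold change of the family for IgG against input was 0.56 (27 entries tested, edgeR). With all reads in the totals it was −0.76 (30 entries). In bulk samples such as these, fewer cells with a miRNA and less of it per cell cannot be told apart.

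Single members were mostly low. With scrambled siRNA the median member had 10.1 RPM against 15.1 RPM for all miRNAs, and 17 of 53 entries (32.1%) reached 15 RPM in all 3 libraries, the threshold for an expressed miRNA used here, against 1032 of 2418 (42.7%). miR-548k was the highest with 377 ± 15.6 RPM (SD, n = 3), followed by miR-548b-5p with 237 ± 11.2, miR-548e-3p with 143 ± 8.29, miR-548m with 136 ± 36.5 and miR-548o-3p with 123 ± 10.8 RPM. The ranges of miR-548k and miR-548b-5p did not overlap with each other or with those of lower members, whereas miR-548e-3p, m and o-3p overlapped. These 5 entries held 57.9% of the family's reads. The next 5 were miR-548h-5p (59.6 RPM), ag (57.9), ba (57.2), aw (53.5) and an (39.2), with ranges that overlapped between neighbours.

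The untreated inputs had a partly different order. miR-548k was again first with 298 ± 82.2 RPM, but miR-548v followed with 285 ± 113 RPM, whereas it had 2.83 RPM with scrambled siRNA. miR-548a-5p had 98.3 RPM in the inputs and 3.87 RPM with scrambled siRNA, and miR-548d-3p 44.5 and 6.49 RPM. In the other direction, miR-548m had 36.3 and 136 RPM and miR-548b-5p 81.0 and 237 RPM. Of the 10 highest members, 6 were the same in both groups, and 17 of the 35 shared entries were higher in the inputs. The scrambled siRNA libraries come from transfected and the inputs from untreated cells, and the counts were listed separately, so these levels stand side by side and were not tested.

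**Figure D1:**
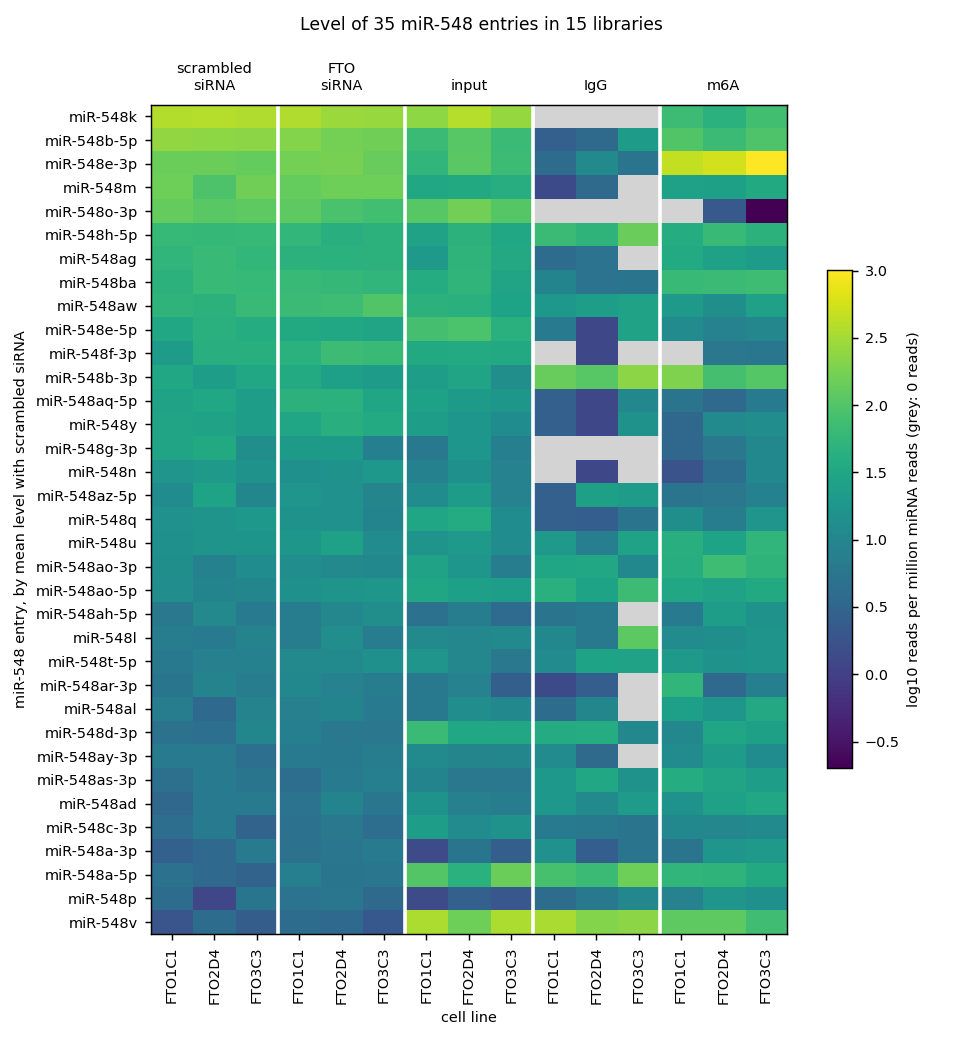
Level of the 35 miR-548 entries present in both tables, as the log10 of RPM, in each of the 15 libraries (columns, by group and clone). Rows are ordered by the mean with scrambled siRNA, grey marks 0 reads, and miR-548k at the top is at 0 in all 3 IgG libraries while miR-548e-3p is brightest in the m6A libraries.

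FTO siRNA left most of the family without a detectable change. Of 50 entries that could be tested, 1 rose and 0 fell at an adjusted p under 0.05 (edgeR, paired by clone), that is 2.00% and 0%, where 4.97% of all 2374 miRNAs tested rose and 0.505% fell. At an unadjusted p under 0.05 there were 8 of 50 entries and 621 of 2374 miRNAs. DESeq2 called 0 entries higher and 3 lower, and 32 and 57 of all miRNAs. The median log2 fold change was 0.17 for the family and 0.29 for all miRNAs. With TMM factors the median of all miRNAs was 0 after rounding, that of the family was −0.12, and 0 entries rose and 2 fell, against 21 and 34 of all miRNAs.

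The entry that rose was miR-548f-3p, with 79, 103 and 83 reads in the scrambled siRNA libraries of FTO1C1, FTO2D4 and FTO3C3 and 160, 239 and 251 reads with FTO siRNA. Its mean level went from 35.1 to 59.9 RPM, and it was 2.12, 1.65 and 1.55 times as high with FTO siRNA in the 3 clones. All 3 clones moved the same way. The log2 fold change was 0.81 (SE 0.20, adjusted p = 0.0436, edgeR). The call was lost without the pairing (adjusted p = 0.155, edgeR), with TMM factors (0.176), with DESeq2 (0.235) and when FTO1C1 (0.328) or FTO2D4 (0.0672) was left out.

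The opposite sign was seen in its close relative miR-548g-3p, which did not pass the test. It had 106, 88 and 27 reads with scrambled and 72, 71 and 31 with FTO siRNA, a ratio of RPM of 0.71, 0.57 and 0.59, and a log2 fold change of −0.67 (SE 0.20, adjusted p = 0.0721, edgeR). With TMM factors the adjusted p was 0.0264, and with totals without miR-10a-5p 0.0464. Since the sequences share 18 bases, reads of the 2 entries may have been exchanged, which was not tested.

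The most abundant members stayed below the threshold. miR-548k had 1359, 970 and 723 reads with scrambled and 1285, 973 and 1057 with FTO siRNA, with a log2 fold change of −0.31 (SE 0.16, adjusted p = 0.257, edgeR). miR-548b-5p had 905, 582 and 451 against 725, 578 and 618 reads, with a log2 fold change of −0.42 (SE 0.16, adjusted p = 0.13, edgeR). miR-548o-3p had 490, 280 and 239 against 429, 297 and 297 reads, with a log2 fold change of −0.39 (SE 0.18, adjusted p = 0.205, edgeR). For these 3, the RPM was lower with FTO siRNA in every clone, and DESeq2 called each of them lower (adjusted p = 0.0351, 0.00851 and 0.0276). miR-548b-5p was also called with TMM factors (edgeR, adjusted p = 0.0355).

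miR-548e-3p, the member with the highest level in the m6A precipitates, was nearly level. It had 531, 366 and 265 reads with scrambled and 597, 602 and 535 with FTO siRNA, 143 and 161 RPM on average. The log2 fold change was 0.17 (SE 0.16, adjusted p = 0.513, edgeR), and its sign turned with TMM factors (−0.12) and DESeq2 (−0.12). Over all 53 entries, 14 were higher in all 3 clones and 8 were lower in all 3, while 43.5% and 5.21% of all miRNAs were. All 7 listed miRNAs known from other cell types had reads in each siRNA library, and their summed level, most of it miR-9-5p, was 652 to 923 RPM with scrambled and 485 to 617 RPM with FTO siRNA, and their part in the values above was not tested.

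**Figure D2:**
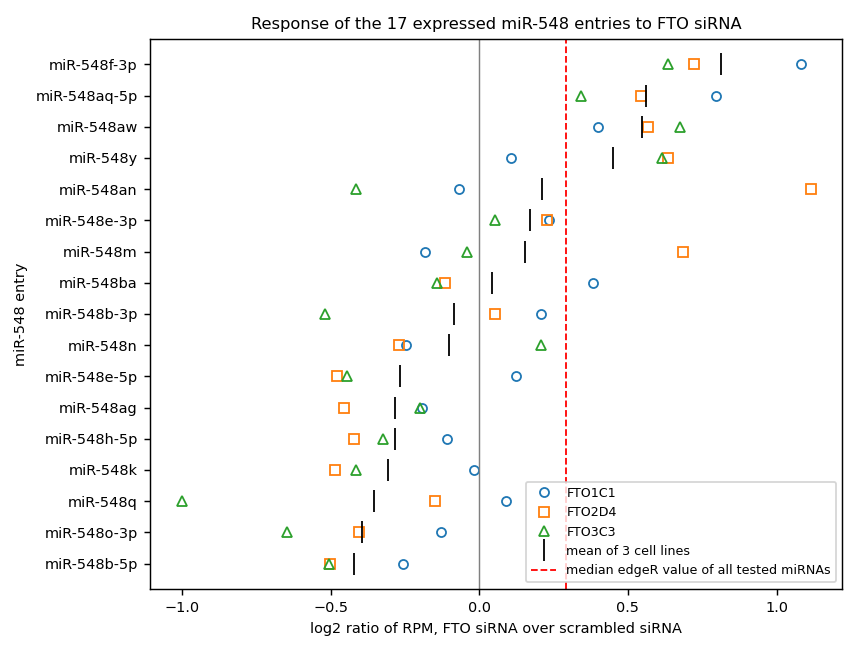
Log2 ratio of RPM, FTO siRNA over scrambled siRNA, of the 17 expressed miR-548 entries in each clone (circle FTO1C1, square FTO2D4, triangle FTO3C3), with their mean as a bar and the median of all tested miRNAs (0.29) as a dashed line. In all 3 clones miR-548f-3p, aw, aq-5p, y and e-3p lie right of 0, and miR-548b-5p, o-3p, k, ag and h-5p lie left of 0.

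In the m6A precipitates one member stood out against the IgG precipitates. miR-548e-3p had 262, 768 and 4991 reads with the m6A antibody and 3, 9 and 1 reads with IgG, that is 676 against 6.95 RPM on average. Every m6A library was above every IgG library, and the ratio within the 3 clones was 114, 49.3 and 187, with a mean of 117 ± 69.0 (SD, n = 3). Its log2 fold change was 6.33 (SE 0.44, adjusted p = 9.83e-06, edgeR). The IgG counts of 1 to 9 reads limit the precision of the ratio. It was the only family entry that met the enrichment rule used here (at least 100 RPM in every m6A library and a mean ratio of at least 2), so 1 of 36 (2.78%) did, against 258 of 2189 miRNAs (11.8%). miR-548e-3p alone made up 39.1% of the family's level in the m6A precipitates.

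Of the 22 entries that could be tested for m6A against IgG, 8 were higher (36.4%) and 1 lower (4.55%) at an adjusted p under 0.05 (edgeR), against a background of 38.6% of 2054 miRNAs higher and 1.27% lower. The share of higher members was thus close to that of all miRNAs. The median log2 fold change was 0.49 for the family and 0.83 for all miRNAs. This order rests on the low-count filter. Without it, all 36 entries were tested and the medians were 1.05 and 0.88. Then 10 entries were higher and 1 lower, against 828 and 28 of 2189 miRNAs (edgeR). In 1 fit over all 9 RIP-seq libraries the medians were 1.16 for the family and 0.90 for all miRNAs. TMM factors, which put the median of all miRNAs at 0.06, gave 6 higher and 6 lower entries, against 453 and 302 of 2054 miRNAs. DESeq2 also gave 6 and 6, against 367 and 249. The other 14 entries had too few reads for the test.

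miR-548k, b-5p, m, ba and ag had reads in every m6A precipitate and few or none in the IgG precipitates, of which that of FTO3C3 was the shallowest library. Among the 6 tested entries named 5p miR-548b-5p was the one called, and the median of the 6 was −0.59. The entries called higher without an arm in the name are not in this count. Of them, miR-548k, m and ag shared their longest run of bases with a 5p entry, and miR-548ba, al and u with a 3p entry. miR-548a-5p (47.0 RPM with m6A, 102 with IgG) and miR-548h-5p (50 and 87.2 RPM) had lower mean levels with m6A. miR-548k had 39, 63 and 375 reads with m6A and 0 reads in every IgG library. Against a floor of 3 reads per IgG library it was at least 4.69-fold higher with m6A in the clone with the lowest bound, FTO3C3, and at least 12.1-fold and 16.9-fold higher in the other two (adjusted p = 0.000437, edgeR). miR-548b-5p had 56, 92 and 481 against 2, 3 and 4 reads and a log2 fold change of 3.80 (SE 0.57). In FTO3C3 its 4 IgG reads stood for 21.5 RPM, against 96.7 RPM with m6A. miR-548m had 15, 35 and 174 against 1, 3 and 0 reads (log2 fold change 3.54, SE 0.66). With the same floor its ratio in FTO3C3 was at least 2.17.

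miR-548ba and miR-548ag, which share the seed AAGGUAA, followed the same pattern. miR-548ba had 36, 90 and 359 reads with m6A against 7, 4 and 1 with IgG, and miR-548ag 21, 36 and 110 against 3, 4 and 0. With the floor of 3 reads the ratio of miR-548ag in FTO3C3 was at least 1.37. The log2 fold changes of miR-548ba and miR-548ag were 3.26 (SE 0.46) and 2.91 (SE 0.59). The adjusted p of miR-548b-5p, m, ba and ag lay between 0.000566 and 0.00405 (edgeR), and these 4, miR-548k and miR-548e-3p passed under all 9 alternatives tried. miR-548al (1.92, adjusted p = 0.0432) and miR-548u (1.30, adjusted p = 0.0329) passed with edgeR but not with TMM factors, DESeq2 or without FTO1C1 or FTO3C3. miR-548u also failed without FTO2D4 and with totals without miR-6080.

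miR-548v was the member that was lower with m6A than with IgG. It had 254, 165 and 42 reads with IgG and 68, 165 and 370 with m6A, that is 259 and 105 RPM on average, while the inputs held 490, 225 and 529 reads. The ratio of m6A to IgG was 0.35, 0.58 and 0.33, below 1 in each clone. The log2 fold change was −1.30 (SE 0.31, adjusted p = 0.0104, edgeR), and the adjusted p was 0.0679 without FTO3C3.

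Against the inputs, the m6A precipitates held more of some 3p entries and less of others. Of 35 entries tested, 10 were higher (28.6%) and 8 lower (22.9%) with edgeR, against a background of 66.8% of 2174 miRNAs higher and 10.5% lower. The median log2 fold change was −0.30 for the family and 1.65 for all miRNAs. With TMM factors the median of all miRNAs was 0.10 and that of the family −1.86, and 1 entry was higher and 22 were lower, against 575 and 614 of 2174 miRNAs. DESeq2 also gave 1 and 22, against 491 and 592. The sign of a member near the middle therefore rests on the scaling.

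miR-548e-3p led this order. The inputs held 78, 164 and 102 reads of it, or 78.6 RPM on average against 676 RPM with m6A, and every m6A library was above every input. Its log2 fold change was 3.08 (SE 0.44, adjusted p = 6.23e-07, edgeR), and of the 10 higher entries it was the one that kept its call under all 9 alternatives. Next were miR-548p (2.68, SE 0.57), miR-548b-3p (2.50, SE 0.45), miR-548as-3p (2.07, SE 0.43) and miR-548ao-3p (1.79, SE 0.44), with adjusted p between 1.61e-05 and 0.000556 (edgeR). These 4 kept their sign but not their call with TMM factors and DESeq2. With 1.42 to 2.74 RPM in the inputs, miR-548p passed the low-count filter only through its m6A reads. Its direction was thereby set in advance, so its rank and call are no support. For m6A against IgG, miR-548b-3p (−0.36), as-3p (0.43) and ao-3p (1.08) were not called (adjusted p from 0.0706 to 0.48, edgeR). miR-548p had too few reads for that test and was above its input with IgG in every clone. The other 5, miR-548ah-5p (1.5), ad (1.37), u (1.34), al (1.32) and ar-3p (1.32), turned in sign under both, and ar-3p also lost its call without the pairing (adjusted p = 0.0718, edgeR). All 5 lost their call when FTO3C3 was left out (adjusted p from 0.0556 to 0.152, edgeR), miR-548ad and ah-5p also without FTO2D4, and ar-3p also without FTO1C1.

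miR-548o-3p was at the other end. It had 154, 236 and 162 reads in the inputs, 0, 3 and 1 in the m6A precipitates and 0 in every IgG precipitate. With 4 reads pooled over the m6A libraries it was 218-fold lower than in the inputs, with a 95% interval from 84.7 to 803 that covers counting error only (exact binomial). With edgeR the log2 fold change was −7.45 (SE 0.68, adjusted p = 6.32e-10). miR-548p, which shares 17 of its bases, had 2, 4 and 3 reads in the inputs and 5, 23 and 73 in the m6A precipitates. miR-548o-3p holds AAC and 1 of the five-base consensus forms, as does miR-548p.

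miR-548f-3p was also low in both precipitates. It had 50, 53 and 53 reads in the inputs, 0, 8 and 28 with m6A and 0, 1 and 0 with IgG. The log2 fold change of m6A against input was −2.97 (SE 0.48, adjusted p = 3.81e-06, edgeR). miR-548e-5p (−2.69, SE 0.43), miR-548k (−2.22, SE 0.42) and miR-548aq-5p (−1.92, SE 0.46) were lower too, with adjusted p of 3.63e-06, 3.29e-05 and 0.000482 (edgeR). These 4 and miR-548o-3p passed under all 9 alternatives. miR-548v (−1.39), miR-548f-5p (−1.14) and miR-548aw (−0.97) passed with edgeR but each lost its call under at least 2 alternatives, among them totals without miR-6080. For miR-548v the other was FTO3C3 left out (adjusted p = 0.0839, edgeR), for miR-548f-5p FTO1C1 (0.264), and for miR-548aw FTO1C1 (0.114) or FTO2D4 (0.28).

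**Figure D3:**
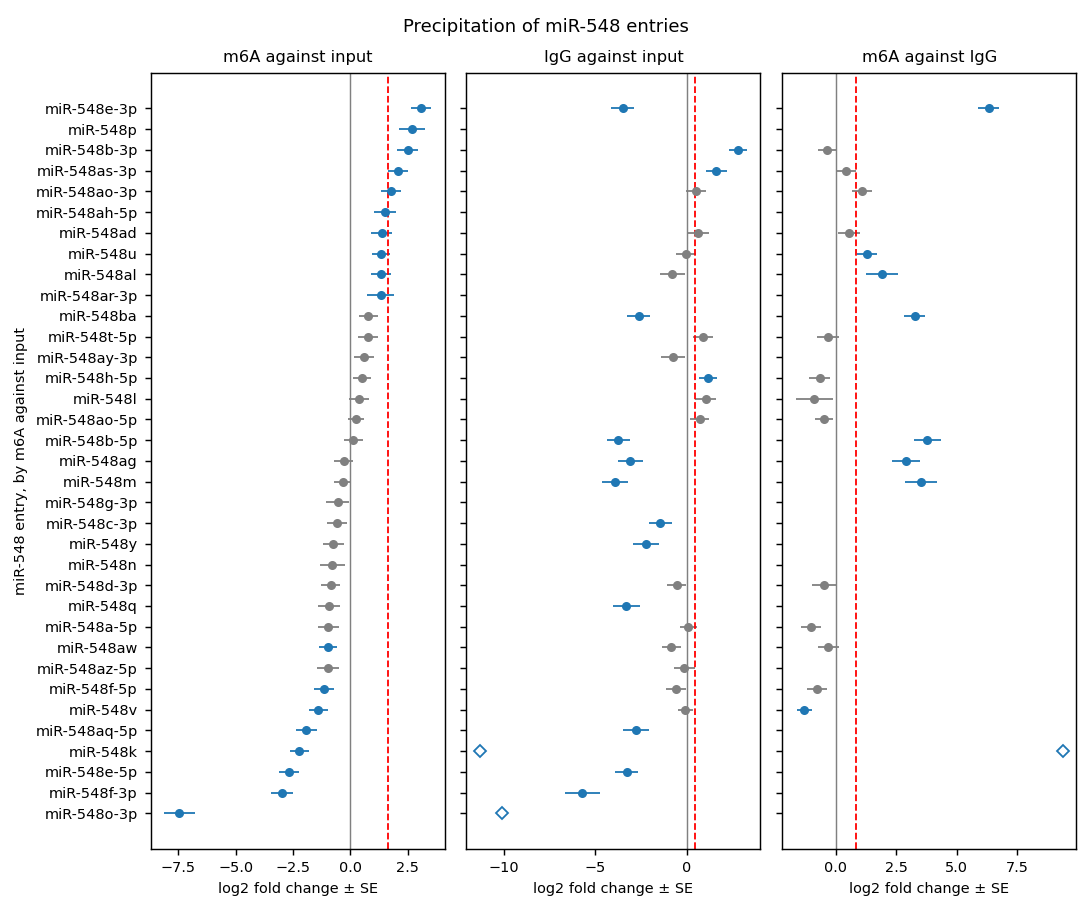
Log2 fold change with its SE (edgeR) of miR-548 entries for m6A against input, IgG against input and m6A against IgG, each n = 3 clones, ordered by m6A against input. Blue marks an adjusted p under 0.05, grey a higher one, open diamonds entries at 0 in every IgG library, whose fitted value is no bound, and the dashed line the median of all tested miRNAs. miR-548e-3p is at the top and miR-548o-3p, at −7.45, at the bottom of the left panel.

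The comparison of IgG with input shows what the nonspecific precipitate held. Of 30 entries tested, 3 were higher (10.0%) and 13 lower (43.3%) with edgeR, against 36.8% of 1941 miRNAs higher and 21.8% lower. The median log2 fold change was −0.76 for the family and 0.49 for all miRNAs. With totals without miR-6080 the median was 0.56 for the family and 1.67 for all miRNAs. Then 11 entries were higher and 10 lower, against 1231 and 273 of 1975 miRNAs.

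miR-548b-3p was the member most raised with IgG. It had 33, 42 and 20 reads in the inputs, 103, 87 and 43 with IgG and 110, 110 and 532 with m6A, that is 21.8, 160 and 127 RPM on average. Both kinds of precipitate were above all inputs. The log2 fold change of IgG against input was 2.82 (SE 0.49, adjusted p = 6.62e-08, edgeR), while that of m6A against IgG was −0.36 (SE 0.37) and not called. miR-548as-3p (1.63, adjusted p = 0.00778) and miR-548h-5p (1.16, adjusted p = 0.0304, both edgeR) were higher as well. miR-548as-3p lost its call with DESeq2 and without FTO2D4, and miR-548h-5p with TMM factors, DESeq2 and without FTO1C1 or FTO3C3.

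miR-548k, b-5p, m, ag and ba, which were higher with m6A than with IgG, were among the members lower with IgG than in the inputs. miR-548k had 336, 572 and 396 reads in the inputs and none with IgG, at least 16.4-fold lower in the clone with the lowest bound. miR-548o-3p was at least 6.71-fold lower by the same measure. miR-548f-3p had 1 read in the pooled IgG libraries against 156 in the inputs, 61.2-fold lower with a 95% interval from 10.8 to 2434 that covers counting error only (exact binomial). The log2 fold changes were −3.91 for miR-548m, −3.73 for b-5p, −3.49 for e-3p, −3.29 for q, −3.27 for e-5p, −3.08 for ag, −2.76 for aq-5p and −2.61 for ba, all with an adjusted p of 0.000244 or less (edgeR). miR-548y (−2.21, adjusted p = 0.00314) and miR-548c-3p (−1.43, adjusted p = 0.0385, both edgeR) were called too, but lost the call with totals without miR-6080 and when FTO1C1, or FTO2D4 for miR-548y and FTO3C3 for miR-548c-3p, was left out. miR-548g-3p was at 0 in every IgG library as well, but its input reads of 9, 26 and 12 were too few for a bound above 1 in every clone.

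As the m6A, IgG and input libraries enter these 3 comparisons in pairs, the comparisons share libraries and are not independent. Side by side, miR-548k was at 298, 0 and 63.4 RPM in input, IgG and m6A, miR-548b-5p at 81.0, 9.32 and 87.5, miR-548e-3p at 78.6, 6.95 and 676, and miR-548o-3p at 126, 0 and 0.80 RPM. Only miR-548e-3p among these was many times above its input level. In RPM, the m6A precipitates held miR-548b-5p at about its input level and less of miR-548k and miR-548o-3p. For miR-548b-5p the log2 fold change of m6A against input was 0.13 (adjusted p = 0.78, edgeR), below the median of 1.65 for all miRNAs. Its place relative to the input therefore rests on the scaling. Of the miRNAs known from other cell types 6 were listed, with miR-142-3p at 0 in 1 IgG library, and they summed to 286 to 693 RPM in the inputs, 90.3 to 107 with IgG and 125 to 214 with m6A, and their part in these values was not tested.

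The 2 arms of a hairpin were counted in the same library, so their shares do not depend on its scaling. A name with several loci, such as miR-548f-3p with 5, need not come from 1 precursor. In miR-548e the 3p arm took 81.6, 76.9 and 77.0% of the reads on both arms with scrambled siRNA in FTO1C1, FTO2D4 and FTO3C3, and 82.7, 84.4 and 82.6% with FTO siRNA. It took 40.6, 55.8 and 60% in the inputs and 97.4, 98.5 and 99.0% in the m6A precipitates. The m6A precipitates were thus above all other libraries, and the inputs below both siRNA groups. The IgG precipitates held only 6 to 10 reads on both arms.

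miR-548b behaved otherwise. Its 3p arm took 11.4, 9.20 and 12.4% with scrambled siRNA and 25.8, 21.0 and 16.5% in the inputs, but 98.1, 96.7 and 91.5% with IgG and 66.3, 54.5 and 52.5% with m6A. Here the IgG precipitates were the highest. In miR-548ao the 3p arm ranged from 23.4 to 46.3% in the inputs and from 56.1 to 72.6% in the m6A precipitates, and in miR-548a from 1.36 to 10.7% and from 8.82 to 35.1%, which overlap. miR-548f went the other way, with 38.5, 56.4 and 57.0% in the inputs and 0, 20.5 and 27.5% in the m6A precipitates. Its m6A library of FTO1C1 held 0 reads on the 3p and 4 on the 5p arm. The 3p entries together made up 53.0, 54.1 and 61.9% of the family's level in the m6A precipitates against 20.5 to 26.4% in the inputs. Most of this difference was miR-548e-3p.

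**Figure D4:**
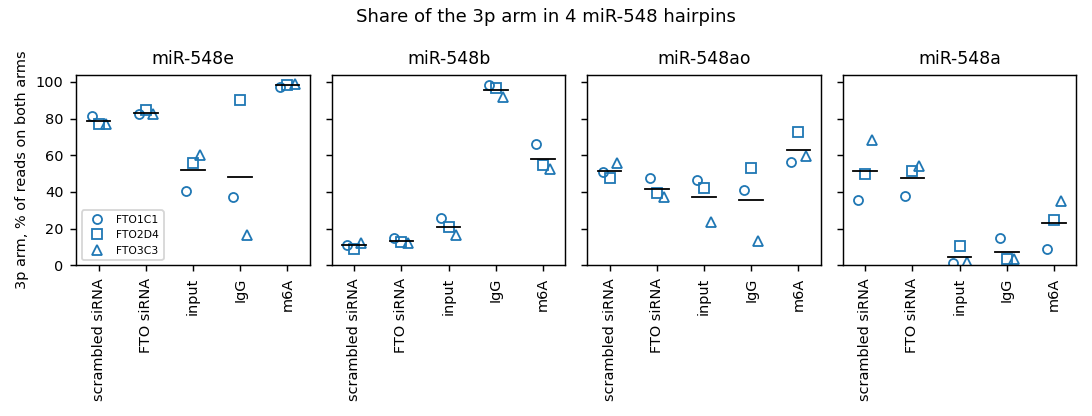
Share of the 3p arm in the reads on both arms of 4 miR-548 hairpins, in percent, for each clone (circle FTO1C1, square FTO2D4, triangle FTO3C3) and group, with the mean as a bar. miR-548e is at 97.4 to 99.0% with m6A, and miR-548b at 91.5 to 98.1% with IgG.

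The letters of the consensus did not sort the sequenced members, which leave out miR-548e-3p, into one direction. Among the sequenced entries tested for m6A against input, the 11 with AAC or GAC had a median log2 fold change of 1.32 and ranged from −7.45 to 2.68, and the 14 without it had a median of −0.67 and ranged from −2.69 to 1.5. For m6A against IgG, the 5 with it had a median of 1.30 and the 7 without it 2.91. For FTO siRNA, the medians were 0.21 (17 entries) and 0.09 (16 entries). The ranges overlapped in each case, and these are descriptions of few related sequences without a test.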

How the data were processed

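Small RNA libraries (TruSeq) of clones FTO1C1, FTO2D4 and FTO3C3 were used. The deposited values are raw, unscaled read counts for each mature miRNA. Per the methods of the study, adapters were trimmed with cutadapt, reads of 16 to 28 bases were kept and matched to miRBase release 20, where exact stretches of 7 or more bases had to cover 17 or more, and entries of identical sequence were joined. No genome alignment was made. No listed miRNA had a total under 22 reads (knockdown) or 82 reads (RIP-seq), so members with fewer reads were not analysed here.

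From these counts RPM were computed on total miRNA reads. The comparisons, FTO against scrambled siRNA and the 3 pairs among m6A, IgG and input, were tested over all miRNAs with edgeR's quasi-likelihood test (filterByExpr with a minimum count of 10, clone as a block, totals as library sizes) and Benjamini-Hochberg adjustment at 0.05. The SE is the size of the log2 fold change before edgeR's shrinkage divided by the square root of F. The log2 fold changes printed are those after shrinkage. For the enrichment rule an IgG count of 0 was set to 3. The alternatives were TMM factors, DESeq2, no low-count filter, no block, totals without the most abundant miRNA, 1 fit over all RIP-seq libraries, other cutoffs, and each clone left out. edgeR 4.0.16 and DESeq2 1.42.0 were run in R 4.3.3. Sequences and gene spans came from RefSeq (GRCh38.p14).

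The clone pairs the libraries, as the titles name it. Deviations from the group means correlated within clones at 0.172, 0.109 and 0.147 for the siRNA groups, 0.0187, 0.0414 and 0.0751 for m6A and IgG, −0.0268, −0.062 and −0.0597 for m6A and input, and 0.0666, −0.0334 and 0.0396 for IgG and input. With 1 library per clone and group and clone as a block, p-values rest on how the group difference varied between clones of 1 cell line. The members and lists were chosen with earlier results of these data known. Members named are the 10 highest in scrambled siRNA and in input libraries, the 10 largest called changes in each direction of each comparison, those that met the enrichment rule, miR-548e-3p, and those at 0 in a whole group. Entries outside this rule are named only for a shared seed, a shared stretch of bases, their arm or a call that changed without the block.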

Additional observations from a re-analysis of the deposited data

How the results depend on the processing

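Of 1032 expressed miRNAs 17 were members, and 35 of 1913 or 7 of 433 with a cutoff of 5 or 50 RPM. Of 258 enriched miRNAs 1 was a member, and 9 of 967 with a cutoff of 15 RPM. For FTO siRNA, 1 entry rose in the paired test, against 118 of all miRNAs. With no replicate block, TMM factors or DESeq2 0 rose, against 37, 21 and 32 of all miRNAs. With a clone left out, 0 rose without FTO1C1 (0 of all miRNAs) or FTO2D4 (87), and 1 without FTO3C3 (191). The number that fell was 0 (12 of all miRNAs), but 2 with TMM factors (34), 3 with DESeq2 (57) and 1 with totals without miR-10a-5p (21). For m6A against IgG, 14 of 36 entries were higher in 1 fit over all 9 RIP-seq libraries, against 876 of 2181 miRNAs. Lower were 6 with TMM factors (302 of all miRNAs), 6 with DESeq2 (249) and 5 with totals without miR-6080 (257). With a clone left out, 0 (without FTO3C3, 3 of all miRNAs) to 2 (without FTO1C1, 20 of all miRNAs) were lower. For m6A against input, 1 was higher and 22 lower with TMM factors (575 and 614 of all miRNAs) and with DESeq2 (491 and 592). With totals without miR-6080, 5 were lower (147 of all miRNAs). With a clone left out, 5 (without FTO3C3, 1284 of all miRNAs) to 10 (without FTO1C1, 1430 of all miRNAs) were higher. For IgG against input, DESeq2 gave 1 higher (447 of all miRNAs) and totals without miR-6080 gave 11 (1231). In m6A against input, TMM factors and DESeq2 turned miR-548ad (−0.18, −0.23), ah-5p (−0.024, −0.10), al (−0.25, −0.25), ar-3p (−0.16, −0.34) and u (−0.21, −0.23). In FTO siRNA they turned miR-548e-3p (−0.12, −0.12), and in m6A against IgG miR-548b-3p ranged from −0.78 to 0.013 with a clone left out, above 0 without FTO3C3. Over all tested members and alternatives, 915 values kept their direction and side of the threshold, 53 lost the call, 65 gained it and 101 turned. The cause was not tested. The shallowest library was IgG of FTO3C3, with 186446 reads. Without the block miR-548f-3p and ar-3p lost their calls, and 5 entries gained one: miR-548a-5p, az-5p, d-3p and q (lower, m6A against input) and miR-548l (higher, IgG against input).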
